A study of Sedum plumbizincicola and Sedum alfredii with 13 samples.

Results

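Shoot-only transcripts shared by both species were the assembled transcript clusters with at least 10 TPM (a transcript level corrected for length and depth) in all 6 shoot libraries and under 1 TPM in all 6 root libraries. Of the 66584 clusters listed, 35 met this rule, below its limit of 150, so all 35 were kept. The members were chosen by their measured TPM in these 12 libraries, so their shoot and root levels are a description without a test. The series compared Sedum plumbizincicola, a succulent that accumulates cadmium (Cd) and zinc to high leaf concentrations, with a non-hyperaccumulating ecotype (NHE) of Sedum alfredii. The groups were shoots of Sedum plumbizincicola with 10 µM and with 0 µM CdCl2 (2 libraries each, A and B), and shoots of Sedum alfredii with 10 µM and with 0 µM (1 library each). Roots were taken from the same 4 combinations of species and dose in the same numbers. Plants had 3 days of treatment, the labels give no further strain or allele, and they do not say how many plants a library stands for. Each library held 1260160 to 4670429 estimated reads, and the 2 shoot libraries of Sedum alfredii (3580014 and 4670429) were deeper than the 4 of Sedum plumbizincicola (1861298 to 2125017).

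Shoots hold the leaf tissues that roots lack. Chloroplasts there capture light and fix carbon, the epidermis makes a cuticle and stomata, and succulents of this plant family can store carbon as acid at night, a route named Crassulacean acid metabolism after the family. Genes of these processes are known to be transcribed at high levels in leaves and little in roots. The files pair no cluster ID with a gene name (0 matched), so none of these roles was assigned to a member and the tissue labels were not checked against marker genes.

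Sharing between the species decided how many transcripts met the rule. Within Sedum plumbizincicola alone 209 transcripts met both limits, and within Sedum alfredii alone 165 did. The 35 shared ones were thus 16.7% of the first list and 21.2% of the second. For comparison, the shoot minimum alone was met by 10688 transcripts in Sedum plumbizincicola, 8960 in Sedum alfredii and 6182 in both. Of the 174 that met the limits in Sedum plumbizincicola only, 94 missed the shoot minimum in Sedum alfredii while staying under the root limit, 55 reached it with at least 1 TPM in a Sedum alfredii root, and 25 failed on both counts. No read at all was found in Sedum alfredii for 54 of the 174. Of the 130 that met the limits in Sedum alfredii only, 69 missed the shoot minimum in Sedum plumbizincicola, 54 passed it with at least 1 TPM in a root, 7 failed on both counts, and 32 had no read in Sedum plumbizincicola. Most unshared transcripts thus missed the shoot minimum in the other species. Reads of both species were counted on the same transcript set, and how well each species' reads match it was not tested. The mirrored rule, at least 10 TPM in all roots and under 1 TPM in all shoots, gave 106 root-only transcripts.

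The limits cut through a continuous range. The member lowest in any shoot was c28652_g1 at 10.2 TPM, in the Cd-treated Sedum alfredii shoot, and the transcript closest below the limit, c36153_g3, stood at 9.97 TPM in the untreated one. The highest root level of a member was 0.97 TPM, and the nearest excluded transcript was c45296_g3, which had 1.08 TPM in the untreated Sedum alfredii root and 1.02 TPM in untreated Sedum plumbizincicola root A. That transcript averaged 1952 TPM over the 6 shoots, but this level came from Sedum plumbizincicola: 2787 and 2494 TPM with Cd and 3302 and 3094 TPM without, against 15.8 and 20.5 TPM in Cd-treated and untreated Sedum alfredii shoots. Including this one, 43 transcripts reached the shoot minimum with a highest root level of 1 to under 2 TPM. Of all transcripts at the shoot minimum, 28 failed the rule through 1 root library alone.

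Levels among the 35 members were very uneven. The mean over the 6 shoots ran from 16.6 to 3936 TPM with a median of 42.1 TPM, close to the median of 40.1 TPM of all 6182 transcripts with at least 10 TPM in every shoot, called shoot-expressed below. Only 8 members averaged at least 100 TPM. By mean level, c42712_g1 ranked 21 among the 6182 and c35921_g1 ranked 121, while the third member ranked 490. The median member was thus an ordinary shoot transcript in level, and c42712_g1 stood far above the rest.

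The leading member c42712_g1 had 3709 and 3462 TPM in Cd-treated and 3768 and 3946 TPM in untreated Sedum plumbizincicola shoots, and 2649 TPM in the Cd-treated and 6079 TPM in the untreated Sedum alfredii shoot. The untreated Sedum alfredii shoot was the highest library and the Cd-treated one the lowest. In roots the same transcript stood at 0.59 and 0.87 TPM with Cd and 0.34 and 0.85 TPM without in Sedum plumbizincicola, and at 0.46 TPM with Cd and 0.18 TPM without in Sedum alfredii. In reads, this was 46459 over 4 shoots against 7 over 4 roots in Sedum plumbizincicola, and 67281 over 2 shoots against 4 over 2 roots in Sedum alfredii. It was thus read in the roots of both species, at levels far below those in shoots.

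The second member, c35921_g1, was at 650 and 600 TPM in Cd-treated and 666 and 737 TPM in untreated Sedum plumbizincicola shoots, and at 653 and 956 TPM in Cd-treated and untreated Sedum alfredii shoots. It had 0 reads in the 4 Sedum plumbizincicola roots and 2 in the 2 Sedum alfredii roots. The third, c34179_g1, varied little between the species, with 215 and 181 TPM in Cd-treated and 230 and 212 TPM in untreated Sedum plumbizincicola shoots and 144 and 189 TPM in Cd-treated and untreated Sedum alfredii shoots. The fourth, c35808_g2, separated the species: 91.3 and 85.6 TPM in Cd-treated and 99.2 and 61.1 TPM in untreated Sedum plumbizincicola shoots, against 215 and 288 TPM in Cd-treated and untreated Sedum alfredii shoots. The last member by mean level, c33177_g1, had 14.1 and 10.2 TPM in Cd-treated and 15.3 and 13.8 TPM in untreated Sedum plumbizincicola shoots, 15.7 and 30.3 TPM in Cd-treated and untreated Sedum alfredii shoots, and 0 reads in all roots. Its untreated Sedum alfredii shoot stood above the other 5. The plot of levels by rank shows the first 4 at its left end.

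**Figure D1:**
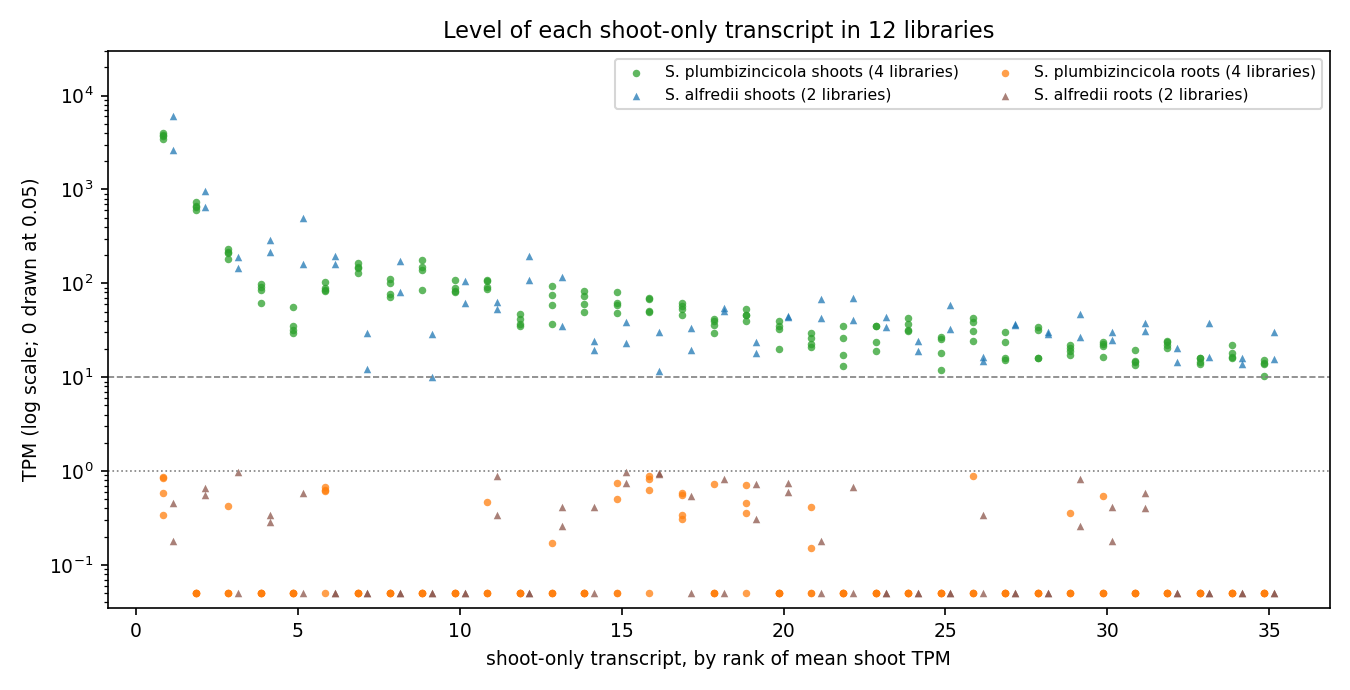
TPM (log scale, 0 drawn at 0.05) of the 35 shoot-only transcripts in 12 libraries, ordered by mean shoot TPM; each point is 1 library, the dashed line is the shoot minimum of 10 TPM and the dotted line the root limit of 1 TPM. The first transcript averages 3936 TPM and most others lie between 10 and 100 TPM, while all root values lie under 1 TPM by the rule.

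In roots the 35 members drew 119 reads in all, of 14039964 reads over the 6 libraries, against 148149 reads in the 6 shoots. In whole organs, fewer cells of a type and less RNA per cell cannot be told apart. In all 6 roots 14 members had 0 reads, where a count of 0 allows up to 3 counts, or 0.214 CPM (read counts relative to library size), over the pooled roots. In the 4 Sedum plumbizincicola roots 21 members had 0 reads, and in the 2 deeper Sedum alfredii roots 15 did. The most root reads of any member were 19. How much a root read weighed depended on length and depth: 1 read was worth between 0.0908 and 3.27 TPM. For 16 members (45.7%) 1 read in at least 1 root library would have reached 1 TPM and broken the rule, against 28.4% of shoot-expressed transcripts, so for these members the rule required 0 reads there.

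The members took a small share of the shoot reads, and 1 library differed from the other 5. The share was 0.796% and 0.721% in Cd-treated and 0.795% and 0.811% in untreated Sedum plumbizincicola shoots, with 95% exact binomial intervals spanning 0.709% to 0.823% over the 4 libraries. It was 0.660% (0.652% to 0.669%) in the Cd-treated and 1.34% (1.33% to 1.35%) in the untreated Sedum alfredii shoot. Such intervals cover counting error alone, as reads from amplified libraries do not each stand for 1 molecule. c42712_g1 supplied 76.8% of the members' shoot reads. Without it the share was 0.206% and 0.184% in Cd-treated and 0.201% and 0.192% in untreated Sedum plumbizincicola shoots, and 0.184% in the Cd-treated and 0.262% in the untreated Sedum alfredii shoot. The untreated Sedum alfredii shoot thus had the highest share with and without the leading member.

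**Figure D2:**
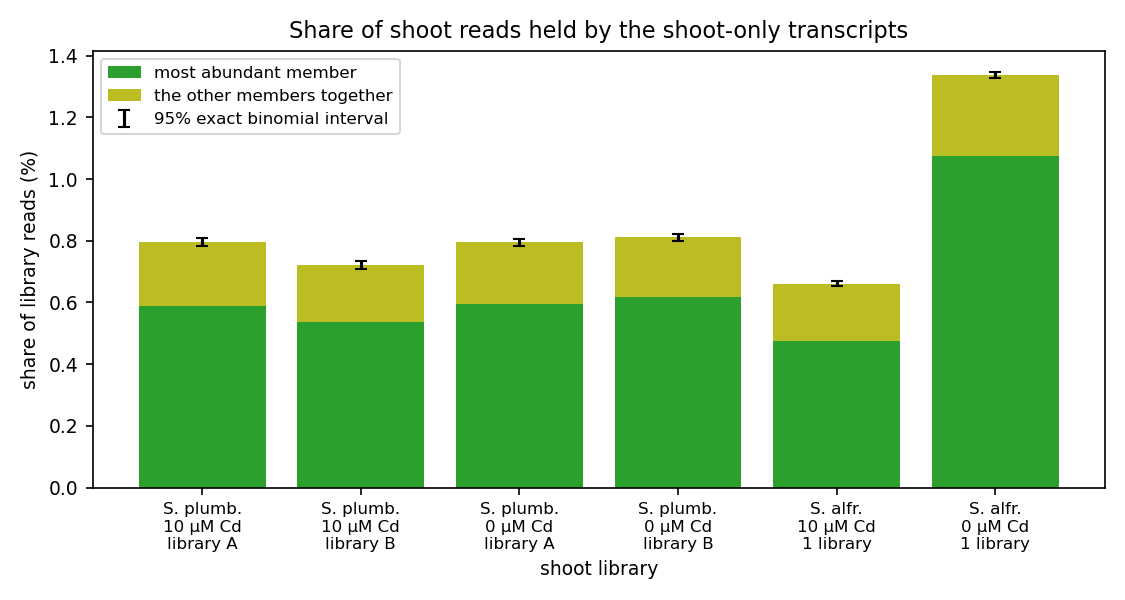
Share of each shoot library's reads (%) held by the shoot-only transcripts, split into the most abundant member and the other members together, with the 95% exact binomial interval of the total. The untreated Sedum alfredii library reaches 1.34%, and the other 5 libraries lie between 0.660% and 0.811%.

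Length and isoform number were not used by the rule, though TPM depends on length. The members had a median length of 880 bases (interquartile range 558 to 1339), against 1126 bases in shoot-expressed transcripts, 926 bases in the root-only transcripts and 393 bases over all clusters listed. They carried a median of 3 isoforms, the same as root-only transcripts, against 5 in shoot-expressed ones. A single isoform was listed for 7 members (20%), 11.3% of root-only and 6.87% of shoot-expressed transcripts. The members were thus somewhat shorter and less branched assemblies than shoot transcripts at large.

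Isoform-weighted lengths differed between the species no more often among the members than among shoot-expressed transcripts. Among the 28 members with several isoforms, the isoform-weighted length in shoots differed by more than 1.1-fold between Sedum plumbizincicola and Sedum alfredii for 46.4%, against 53.9% of 5757 such shoot-expressed transcripts. In 8 of these 13 members the longer value was in Sedum plumbizincicola and in 5 in Sedum alfredii. The spread of these lengths between libraries of a species was not tested. By ratio the widest gap was that of c29601_g1, at a mean of 1266 bases in Sedum plumbizincicola and 548 bases in Sedum alfredii shoots. In bases it was that of c45644_g1, at 3431 and 1744 bases. The level of c29601_g1 was 36.9 and 34.7 TPM in Cd-treated and 42.2 and 47.3 TPM in untreated Sedum plumbizincicola shoots, against 108 and 194 TPM in Cd-treated and untreated Sedum alfredii shoots. By library size alone, with no correction for length, the same Sedum plumbizincicola libraries stood at 53.5, 48.4, 58.8 and 52.4 CPM and those of Sedum alfredii at 57.0 and 99.6 CPM, so the Cd-treated Sedum alfredii shoot lay within the Sedum plumbizincicola range. With TMM factors, which equalise the bulk of transcripts between libraries, they stood at 56.4, 48.2, 61.5 and 55.3 CPM against 80.5 and 165 CPM.

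**Figure D3:**
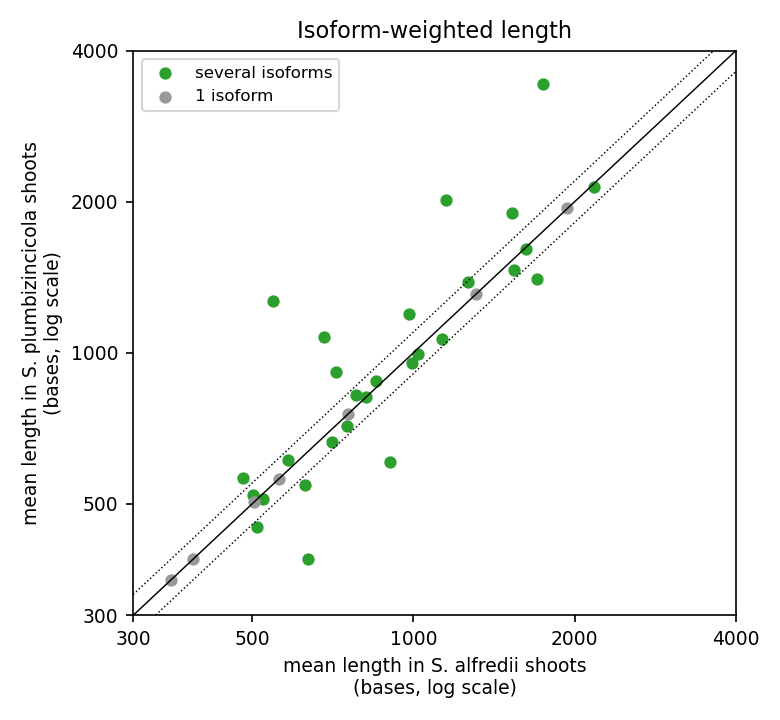
Isoform-weighted length (bases, log scales) of each shoot-only transcript, as the mean over 4 Sedum plumbizincicola shoots against the mean over 2 Sedum alfredii shoots; the solid line marks equal lengths and the dotted lines 1.1-fold. The 7 transcripts with 1 isoform lie on the line by definition, and 13 of the others lie outside the dotted lines.

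Each of the 35 members came from a different assembly component, a set of clusters with shared sequence. Of the 35, 23 (65.7%) were the only cluster of theirs, near the 61.6% of all clusters listed. The share was 55.7% of root-only and 49.5% of shoot-expressed transcripts. The other 12 members had 25 sister clusters between them, 22 of which had at least 10 reads over the 12 libraries. Of these 22, 6 reached 10 TPM in all 6 shoots and 4 stayed under 1 TPM in all 6 roots. Conversely, 10 sisters, in the components of 7 members, reached 10 TPM in a root, and 17 reached 1 TPM in both organs. The widest case, chosen after the values were seen, was component c36500. Its member c36500_g3 had 0 reads in roots, while its sister c36500_g1 reached 89.0 TPM in a root and at most 0.26 TPM in a shoot, with 772 root and 2 shoot reads. Reads can be split among sister clusters of similar sequence, and how far this touched these 12 members was not tested.

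Within a species the order of the members was steady, and between species it was not. Across the 35 members the log2 TMM-normalised CPM of any 2 Sedum plumbizincicola shoots had Spearman coefficients of 0.936 to 0.977 (6 pairs), and the 2 Sedum alfredii shoots 0.909. Between the species the 8 pairs gave 0.496 to 0.652. These values describe the members, which are not replicates, and high and low members alone raise them. The highest of a member's 6 shoot TPM values was 1.59 to 17.3 times its lowest, with a median of 2.76 against 2.24 in shoot-expressed transcripts. Within the 4 Sedum plumbizincicola shoots the medians were 1.42 and 1.38.

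How the members differed between the species in shoots was tested with edgeR's quasi-likelihood test in 1 fit of the 12 libraries. The fit held each species' organs apart and let Cd act on each organ, with the Cd effect taken as equal in both species. The Cd response of Sedum plumbizincicola minus that of Sedum alfredii, tested below, was above 0 for 33 of 35 members. It was called for c27885_g1. For such members the species difference is an average over the doses. CPM are normalised by TMM factors from here on. The rule set only a minimum in each species, so differences above that minimum were free to vary. Its ranking by mean level removed no transcript, as all 35 were kept. All 35 members passed the filter on low counts. Of these, 26 (74.3%) were called, against 65.8% of all 24074 transcripts tested and 66.5% of shoot-expressed ones. Sedum plumbizincicola had the higher level for 5 members (14.3%), against 31.9% of all and 17.1% of shoot-expressed transcripts. Sedum alfredii had it for 21 (60%), against 33.9% and 49.4%. The share of calls was thus near the background, and most calls among members and among shoot-expressed transcripts were toward Sedum alfredii. The members' median log2 difference was -0.90 (interquartile range -1.50 to 0.08), against -0.49 in shoot-expressed transcripts and 0.00 over all tested.

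The members highest in Sedum plumbizincicola relative to Sedum alfredii were c37063_g2 and c28652_g1, both with 1 isoform and 0 reads in all 6 roots. c37063_g2 had 48.8 and 41.8 CPM with Cd and 40.8 and 38.8 CPM without in Sedum plumbizincicola shoots (42.6 ± 4.37, SD, n = 4), and 5.52 and 15.2 CPM with and without Cd in Sedum alfredii. The groups did not overlap, and the log2 difference was 2.04 (SE 0.34, adjusted p = 8.00e-05, edgeR). c28652_g1 had 37.0 and 33.2 CPM with Cd and 20.2 and 44.6 CPM without in Sedum plumbizincicola, and 3.94 and 12.8 CPM with and without Cd in Sedum alfredii, again without overlap (log2 difference 2.03, SE 0.45, adjusted p = 0.00216, edgeR).

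In the other direction c27885_g1 differed most. It had 29.0 and 15.5 CPM with Cd and 14.8 and 18.1 CPM without in Sedum plumbizincicola shoots (19.3 ± 6.58, SD, n = 4), and 123 and 440 CPM with and without Cd in Sedum alfredii. Its log2 difference was -3.70 (SE 0.58, adjusted p = 0.00367, edgeR), and with a replicate block it was -3.49 and not called (adjusted p = 0.0591). This difference was -4.63 without the Cd-treated Sedum alfredii shoot and -2.40 without the untreated one. c35808_g2 had 58.0 and 50.9 CPM with Cd and 59.5 and 43.0 CPM without in Sedum plumbizincicola (52.9 ± 7.54, SD, n = 4), and 222 and 338 CPM with and without Cd in Sedum alfredii. Its log2 difference was -2.39 (SE 0.20, adjusted p = 4.67e-08, edgeR). For both, every Sedum alfredii shoot lay above every Sedum plumbizincicola shoot. The leading member c42712_g1 was also called, with a log2 difference of -0.90 (SE 0.27, adjusted p = 0.00743, edgeR). Its Cd-treated Sedum alfredii shoot, at 6719 CPM, lay near the Sedum plumbizincicola shoots, at 5361 to 6524 CPM, and the untreated one was at 17797 CPM. The call of c42712_g1 did not hold with limma on log2(TPM + 1) (-0.11, adjusted p = 0.840, limma). In edgeR its log2 difference was -0.16 without the untreated Sedum alfredii shoot. Without untreated Sedum plumbizincicola library A it was -0.67, and without untreated library B -0.70. The call of c42712_g1 was lost in each of these edgeR fits.

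**Figure D4:**
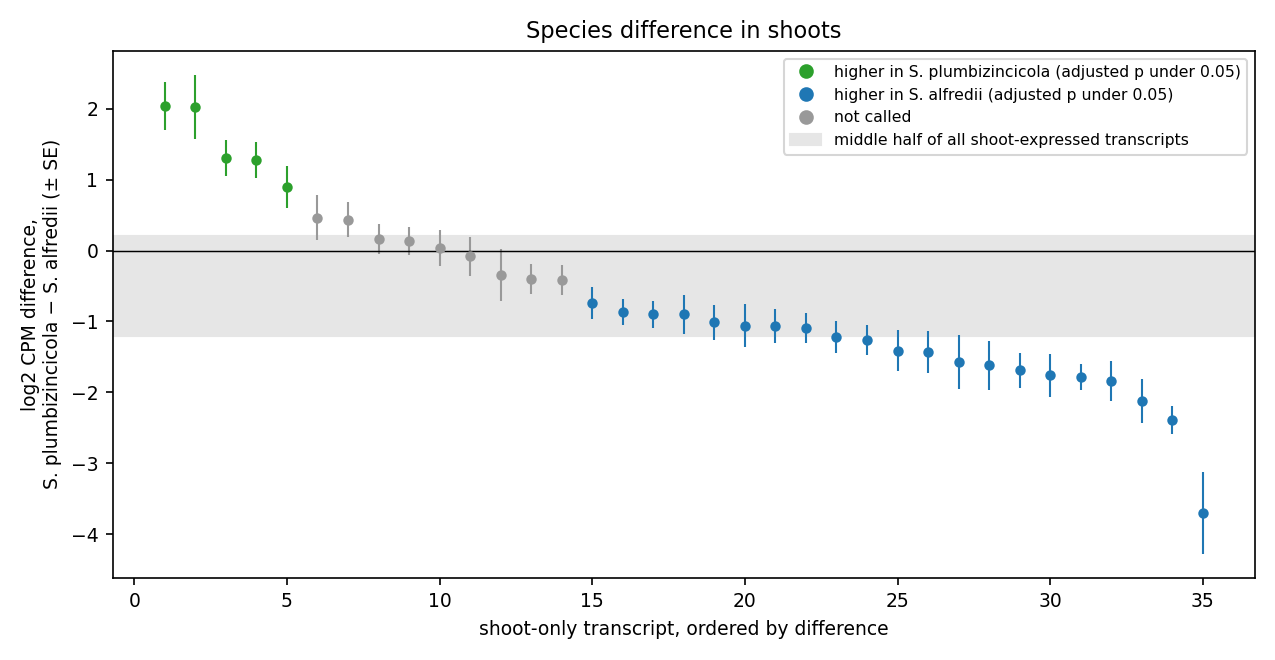
Difference in log2 CPM between Sedum plumbizincicola and Sedum alfredii shoots (± SE) for the 35 shoot-only transcripts in order of size; colours give edgeR's call and the grey band the interquartile range of shoot-expressed transcripts. There are 5 called values above 0, up to 2.04, and 21 called values below 0, down to -3.70.

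The number of calls and their balance moved with the scale and with 1 library. On log2(TPM + 1), where limma was used and the middle transcript of all tested moved 0.34 to the Sedum plumbizincicola side, 20 members were called, 10 in each direction, and the 15 shared with edgeR's calls kept their direction (5 and 10). On that scale 29.2% of shoot-expressed transcripts were called toward Sedum plumbizincicola and 20.03% toward Sedum alfredii. Relative to all transcripts the members' median was -0.68 on that scale and -0.90 in edgeR. Without the untreated Sedum alfredii shoot, edgeR called 17 members, 6 of them toward Sedum plumbizincicola and 11 toward Sedum alfredii. The share of shoot-expressed transcripts called was also lower without that library, at 52.8% against 66.5%. The groups of 4 and 2 shoots did not overlap for 25 members. In every Sedum plumbizincicola shoot 4 (11.4%) were higher and 21 (60%) lower, against a background of 19.9% and 52.1% of shoot-expressed transcripts.

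Whether Cd changed the members in Sedum plumbizincicola shoots was tested within a fit of its 8 libraries by tissue and dose. No member was called by edgeR, none had an unadjusted p under 0.05, and the background was 0% of 19935 transcripts (470 at an unadjusted p under 0.05). DESeq2 called 1 transcript, which was no member. The members' log2 fold changes had a median of 0.04 (interquartile range -0.14 to 0.18, range -0.52 to 0.77), against -0.04 in shoot-expressed transcripts. Both Cd-treated shoots lay above both untreated ones for 8 members (22.9%), against 11.8% of shoot-expressed transcripts. They lay below them for 2 members (5.71%), against 16.6%.

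Among the highest values were those of c31535_g1, at 15.03 and 11.3 CPM with Cd against 7.38 and 7.97 CPM without (log2 fold change 0.77, SE 0.43), and of c31050_g1, at 11.8 and 10.7 CPM against 7.87 and 5.31 CPM (0.75, SE 0.46). Neither pair of doses overlapped, yet the adjusted p of edgeR was 1 for both, at 10 to 28 reads a library. The lowest were those of c41774_g1, at 164 and 76.1 CPM against 212 and 132 CPM (-0.52, SE 0.36), and c40571_g1, at 31.1 and 30.6 CPM against 43.8 and 34.0 CPM (-0.34, SE 0.27), likewise with an adjusted p of 1.

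In Sedum alfredii shoots the dose comparison rests on 1 library each, so replicates cannot check it and it was not tested. The members were lower in the Cd-treated library in 32 of 35 cases, with a median log2 ratio of -0.60 (interquartile range -1.07 to -0.43). Among shoot-expressed transcripts 63% were lower and the median was -0.12, and over all transcripts 56.3% were lower. At least 2-fold lower were 11 members (31.4%), against 5.12% of shoot-expressed and 6.54% of all 18679 transcripts, and none was at least 2-fold higher (2.09% and 5.23%). On the log2(TPM + 1) scale 29 members were lower and 8 at least 2-fold lower, with a median of -0.38. There the background turned, with 43.2% of shoot-expressed and 40.9% of all transcripts lower and medians of 0.07 and 0.11.

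Among the 27 members with at least 100 reads in 1 of these libraries, the lowest ratios were those of c41774_g1, with 224 reads with Cd and 954 without (0.261-fold, 95% counting interval 0.225 to 0.303), and c27885_g1, with 311 and 1242 reads (0.279-fold, 0.245 to 0.316). The leading member c42712_g1 had 17033 and 50248 reads (0.378-fold, 0.371 to 0.384). The highest ratios were those of c36117_g1, with 111 and 82 reads (1.51-fold, 1.12 to 2.03), and c45644_g1, with 515 and 387 reads (1.48-fold, 1.30 to 1.70). Only c31050_g1 besides these 2 was above 1. Of the 35 members 23 (65.7%) had their highest shoot CPM in the untreated Sedum alfredii library, against 40.3% of shoot-expressed transcripts.

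The same ratios in Sedum plumbizincicola did not show such a shift. The members' median was 0.16 between doses in the A libraries and -0.10 in the B libraries, with 0 and 1 members at least 2-fold lower. Between the replicates A and B it was 0.22 with Cd, where 30 of 35 members were higher in A, and 0.10 without Cd, where 21 were higher in A and 2 were at least 2-fold lower. The members' median thus moved by up to 0.22 between these replicate libraries, and it was -0.60 in the Sedum alfredii dose pair. So few pairs of the other species cannot show how far lone Sedum alfredii libraries vary. The 11 members at least 2-fold lower with Cd in Sedum alfredii had Sedum plumbizincicola log2 fold changes of -0.52 to 0.43 with a median of 0.01, 6 of them above 0. What set the untreated and the Cd-treated Sedum alfredii library apart, plant, harvest or dose, cannot be told apart.

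**Figure D5:**
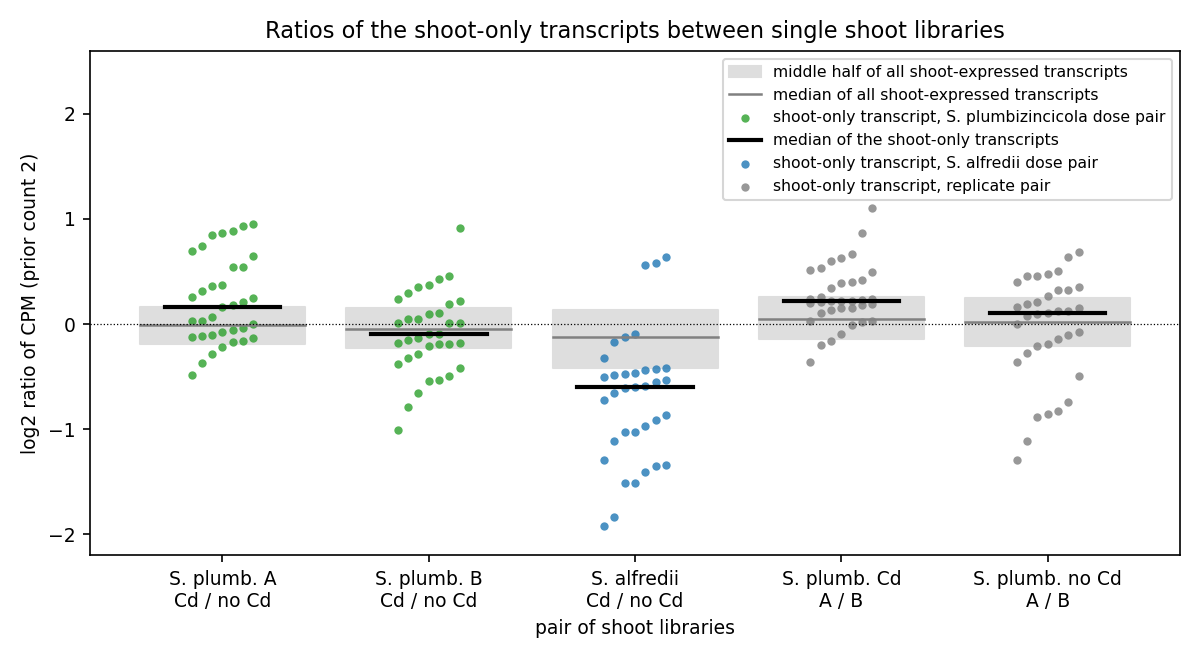
Log2 ratio of CPM (prior count 2) between pairs of single shoot libraries for the 35 shoot-only transcripts; black bars are their medians, and grey bands and lines the interquartile range and median of shoot-expressed transcripts. The median is -0.60 in the Sedum alfredii dose pair and lies between -0.10 and 0.22 in the 4 Sedum plumbizincicola pairs.

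Over both species together, the Cd term of the 12-library fit called 0 of 35 members in edgeR, against 0.129% of 24074 transcripts, and DESeq2 also called 0 members. At an unadjusted p under 0.05 in edgeR were 5 members (14.3%), against 4.86% of all transcripts. In DESeq2 it was 1 member (2.86%), against 3.13%. The members' median log2 fold change was -0.20, with 28 values below 0, against a median of -0.07 and 63.0% below 0 in shoot-expressed transcripts. The lowest value, for c41774_g1, was -0.99 (SE 0.35, adjusted p = 0.866, edgeR). Without Cd-treated Sedum plumbizincicola library A it was the 1 member called (-1.48, adjusted p = 0.0116). c33177_g1 was at -0.68 (SE 0.31), and the highest values were 0.71 for c31050_g1 (SE 0.30) and 0.32 for c31535_g1 (SE 0.31), with adjusted p of 0.967 to 1. With 1 Sedum alfredii shoot library left out, whichever it was, the median was 0.05, so its sign rested on that dose pair.

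The difference of the Cd response between the species was tested in a fit of the 12 libraries by group, in which the lone Sedum alfredii libraries are assumed to vary like the replicated groups. edgeR called 1 member (2.86%), against 0.52% of 26730 transcripts and 1.02% of shoot-expressed ones. It was c27885_g1, whose log2 fold change with Cd was higher by 2.23 in Sedum plumbizincicola than in Sedum alfredii (SE 0.45, adjusted p = 0.0233). The call was lost without Cd-treated library A (1.77, adjusted p = 0.261) and without untreated library A (2.09, adjusted p = 0.114) of Sedum plumbizincicola, and with limma on log2(TPM + 1) (adjusted p = 0.138). The leading member c42712_g1 had a difference of 1.22 (SE 0.38, adjusted p = 0.299 in edgeR). DESeq2 called it with an adjusted p of 0.0430, and over all alternatives its adjusted p ran from 0.0370 to 0.766. The difference was above 0 for 33 of 35 members, with a median of 0.64 against 0.07 in shoot-expressed transcripts. These values use the same 2 Sedum alfredii libraries as the ratios above and are no further support for them.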

How the data were processed

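Roots and shoots were sequenced as Illumina libraries, per the labels. FastQC, Bowtie and RSEM appear in the submitters' processing notes without versions, and no source used here states how the transcript set shared by both species was made. Per the file headers, the authors' values are, for each cluster, the expected count of RSEM, TPM, FPKM and a length weighted by isoform use. Deposited expected counts were rounded before testing. Deposited TPM served the rule and an alternative test. Deposited FPKM was not used in a test. A pooled pyrosequencing library was not analysed here, and no sequences were at hand to print.

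The tests were those of edgeR 4.0.16, run in R 4.3.3 (TMM, filterByExpr, robust quasi-likelihood F-test, two-sided) with Benjamini-Hochberg adjustment over all transcripts tested and a threshold of 0.05. Printed adjusted p-values are from edgeR unless another tool is named. Printed SE of log2 differences and fold changes were derived as the absolute value divided by the square root of edgeR's F. They are not standard errors reported by the model and need not match the p-values. The fit of 8 libraries had 4 residual degrees of freedom, and those of 12 libraries had 6 (species and Cd terms) and 4 (by group). The alternatives were DESeq2 1.42.0, limma 3.58.1 on log2(TPM + 1), other filters and normalisation, shoot libraries alone, a replicate block and leaving out each shoot library. Ratios of single libraries used a prior count of 2 and at least 10 reads in 1 library. Replicate libraries differed beyond sampling noise, with a chi-square of 3.11 to 14.6 per degree of freedom, so each counted once. They are biological replicates per the series' design text, which does not say whether they were separate plants, so p-values measure the spread between these libraries. The scripts were tested on simulated counts.

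Named transcripts were the 4 highest members and the last by mean TPM, the widest length difference by ratio, and the 2 highest and 2 lowest log2 fold changes per comparison among calls, or among all members where none was called. For Sedum alfredii they were the 2 highest and 2 lowest ratios with at least 100 reads. The leading member was followed throughout, and the nearest transcripts outside each limit stand in for the first beyond the limit of 150, which was not reached. No component held more than 1 member, so that part of the rule named none. The members, rules and tests were chosen with earlier results of these data known.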

Additional observations from a re-analysis of the deposited data

Results flagged for a closer look

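The Cd response of c27885_g1 in shoots differed between the species by a log2 difference of 2.23 (SE 0.45, adjusted p = 0.0233, edgeR), and this test of the difference drew attention to it. With Cd its level was 29.0 and 15.5 CPM in Sedum plumbizincicola shoots, against 14.8 and 18.1 CPM without. In Sedum alfredii it was 123 CPM with Cd and 440 CPM without, from 1 library each. In this fit no other member was called, while 3 members were called without a filter on low counts and 3 with a replicate block.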

How the results depend on the processing

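The number of members depended on the limits: 60 transcripts met the rule with a shoot minimum of 5 TPM and 15 with 20 TPM, 18 with a root limit of 0.5 TPM, 78 with 2 TPM, and 14 with 0 root reads. TMM-normalised CPM in place of TPM gave 44, of which 21 were among the 35, and leaving out 1 library gave 35 to 44. The species calls ran from 17 to 27 members when 1 shoot library was left out. The Cd calls over both species ran from 0 to 1. For the difference of the Cd response 2 members were called by DESeq2, 3 by limma, 3 without a filter and 3 with a replicate block, and 0 to 1 when 1 Sedum plumbizincicola shoot was left out. It could not be fitted without a Sedum alfredii shoot. No alternative called a member for Cd in Sedum plumbizincicola. The letters A and B mark no shared plant in the labels. A-minus-B deviations of the Cd-treated and untreated shoots had a correlation of 0.321, and those of the roots 0.463. Between a shoot group and a root group it was 0.0859 to 0.170. The main fits held no replicate block. With the replicate block c27885_g1 was no longer called between the species (log2 difference -3.49, adjusted p = 0.0591). Over all transcripts, calls for the difference of the Cd response went from 139 to 304 without a filter, 368 with the block and 3333 with limma. Those for Cd in Sedum plumbizincicola went from 0 to 22 without a filter and 9 with the block, and those for Cd in both species from 31 to 111 and 49, to 4 by DESeq2, 0 by limma and 1 without either Sedum alfredii shoot. The species calls, 15849 of 24074, were 8079 of 12176 with at least 10 reads required in every shoot, 21142 of 65369 without a filter and 19038 of 44422 with limma. The share of TPM held by the members was 0.501% to 0.965% per shoot library. Of 207 alternative values of the 17 log2 differences followed in the 4 tests, 0 changed sign. Most of these differences were picked as extremes of the same data, so their kept signs are no check on the other members. The Sedum alfredii ratios of single members were not recomputed. The causes were not tested. With 2 libraries per group and 1 in Sedum alfredii, and as few as 9 reads for a member in a shoot library, small changes were not detectable.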
